A study of Mus musculus with 6 samples.

Results

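*Acly* and 9 further genes that make, move or use acetyl-CoA and its precursors were followed in bone marrow-derived macrophages (BMDMs) from female mice. The 10 genes were listed by symbol for their roles (*Acly*, *Acss1*, *Acss2*, *Slc25a1*, *Crat*, *Aacs*, *Acat1*, *Acot12*, *Pdha1* and *Dlat*), out of 24445 genes in the deposited read counts, and they were chosen with earlier results of these data known, although no measured value enters the rule. Although they are grouped here around cytosolic acetyl-CoA, several of the encoded proteins work in mitochondria, and *Acot12* encodes an enzyme that breaks acetyl-CoA down. Bone marrow precursors were differentiated with L929-conditioned medium over 7 days, after which all 6 cultures received 100 U/mL IL-4 for 24 h. The 3 AclyM-KO libraries came from mice in which exon 9 of *Acly* is floxed and Cre is driven by Lyz2, so that the exon is deleted in the myeloid lineage, and the 3 Ctrl libraries from Acly fl/fl littermates that carry the floxed allele without Cre. Both groups were thus floxed and IL-4-treated, and untreated BMDMs were not analysed here. The replicates are called biological in one place of the study and technical replicates of pooled mice in another, so that the p-values below measure the spread between libraries, which may be technical.

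Acetyl-CoA is made in mitochondria, where the pyruvate dehydrogenase complex converts pyruvate, and it cannot cross the inner mitochondrial membrane. It leaves as citrate through the carrier encoded by *Slc25a1*, and ATP citrate lyase, the product of *Acly*, splits the citrate in the cytosol into acetyl-CoA and oxaloacetate. Acetate can also be activated directly, in the cytosol and nucleus by the product of *Acss2* and in mitochondria by that of *Acss1*. Cytosolic acetyl-CoA feeds the synthesis of fatty acids and sterols and the acetylation of histones, and several genes of this supply are under the control of SREBP transcription factors.

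The *Acly* exon between the loxP sites is shown because it is the part of the gene that the Cre removes. *Acly* lies at chr11:100476353-100528000 on the minus strand of GRCm38, the build of all positions given here. In the GENCODE M21 transcript paired with the deposited *Acly* counts, exon 9 of 29 spans 100514962 to 100515098 and is wholly coding. The sequence is given 5′ to 3′ on the coding strand and follows the numbering of this transcript.
*Acly* exon 9: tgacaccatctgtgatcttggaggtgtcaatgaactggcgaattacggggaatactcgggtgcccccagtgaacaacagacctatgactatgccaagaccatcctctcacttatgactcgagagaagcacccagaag
These 137 bases leave a remainder of 2 when divided by 3. Counted from the start codon, 288 whole codons precede the exon, or 26.2% of the 1101 codons of the full reading frame. With exon 8 joined to exon 10, a script that read the GENCODE transcript met the first stop after 325 codons, 37 codons past the joint. Exon 9 makes up 3.10% of the 4426-base transcript, and the other exons would still give reads.

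The 250 bases upstream of the RefSeq transcription start are shown for *Acly* and for the genes *Acss2*, *Slc25a1* and *Aacs*, which are the members with the lowest p-values. They are taken from RefSeq on GRCm38.p6, which held such a sequence for 8 of the 10 genes (none for *Acat1* or *Crat*). These starts are not always those of the GENCODE gene positions given below, and 95 bases of the *Acss2* window, 59 of the *Aacs* window and all 250 of the *Acss1* window lie inside the gene as GENCODE places it. Capitals mark matches, on either strand, to the GC box GGGCGG or to the CCAAT box. The third motif searched, the sterol regulatory element TCACNCCAC, overlaps with neither.
*Acly* (chr11:100528001-100528250, minus strand): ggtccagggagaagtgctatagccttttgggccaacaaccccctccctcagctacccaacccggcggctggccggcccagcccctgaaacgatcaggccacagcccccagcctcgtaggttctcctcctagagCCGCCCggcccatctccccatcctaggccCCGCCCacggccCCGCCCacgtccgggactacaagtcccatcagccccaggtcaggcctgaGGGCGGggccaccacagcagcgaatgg
*Acss2* (chr2:155517793-155518042, plus strand): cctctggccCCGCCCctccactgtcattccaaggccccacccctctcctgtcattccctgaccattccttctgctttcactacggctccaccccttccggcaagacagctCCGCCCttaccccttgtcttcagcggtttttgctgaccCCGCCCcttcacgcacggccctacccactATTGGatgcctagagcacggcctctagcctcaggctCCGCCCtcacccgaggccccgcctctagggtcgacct
*Slc25a1* (chr16:17928220-17928469, minus strand): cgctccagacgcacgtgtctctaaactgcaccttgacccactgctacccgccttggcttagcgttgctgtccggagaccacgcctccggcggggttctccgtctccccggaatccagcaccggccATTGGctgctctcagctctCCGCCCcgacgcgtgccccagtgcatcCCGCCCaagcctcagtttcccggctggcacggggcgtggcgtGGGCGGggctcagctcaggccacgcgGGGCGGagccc
*Aacs* (chr5:125475623-125475872, plus strand): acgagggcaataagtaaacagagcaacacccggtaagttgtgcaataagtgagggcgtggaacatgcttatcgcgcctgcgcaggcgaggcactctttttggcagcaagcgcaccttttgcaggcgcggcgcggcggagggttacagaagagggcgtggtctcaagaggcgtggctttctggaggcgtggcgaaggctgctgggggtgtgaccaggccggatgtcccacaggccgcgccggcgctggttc
The GC box occurred 4 times in each of the *Acly*, *Acss2* and *Slc25a1* windows and 0 times in that of *Aacs*. In the windows not shown it occurred 2 times for *Acss1*, 1 time each for *Acot12* and *Dlat*, and 0 times for *Pdha1*. Of the 32851 windows of this length, 32.7% held it at least once, which gives no background for a count of 4. One CCAAT box each was found in *Acss2* and *Slc25a1* and none in the others of the 8 windows (33.8% of all windows held at least 1). The sterol regulatory element in this spelling was in 0 of the 8 windows, against 1.05% of all windows. A match is a stretch of letters and no measured binding, and the absence of one says only that these letters are not in this window.

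The libraries held 12151975 to 15587283 counts each. The counts are reads per RefSeq transcript, and 1 row was used for each gene. They are given as CPM, the counts scaled to a common library size with TMM factors. Differences were tested by the quasi-likelihood method of edgeR over all 12023 genes with enough counts, with Benjamini-Hochberg adjustment. A gene passed with an adjusted p under 0.05, and was called if its log2 fold change was also beyond 0.58 in either direction. Positive values mean higher in AclyM-KO. Macrophage marker genes were all detected, and the 7 genes summed to 13362 to 14672 CPM in Ctrl and 11054 to 11503 CPM in AclyM-KO. Of these, 4 passed lower, where 12.6% of all genes tested did, and *Adgre1* passed higher, where 12.4% did. Among those lower was *Lyz2*, the gene that drives the Cre, at 6591 ± 514 CPM in Ctrl and 4139 ± 119.8 CPM in AclyM-KO (SD, n = 3 each). *Lyz2* was the largest term of the sum in both groups, so the lower sum in AclyM-KO mostly reflects this gene. Whether the Cre allele itself changes the *Lyz2* transcript was not tested. The 9 neutrophil markers summed to 17.1 to 19.3 CPM in Ctrl and 24.9 to 26.7 CPM in AclyM-KO, and *S100a8* and *S100a9* passed higher. That of *S100a9* was lost without Ctrl replicate 3. Markers of dendritic cells reached at most 4.09 CPM in sum, those of fibroblasts 1.30 CPM with *Lum* at 0, and those of lymphocytes 0.675 CPM with *Ncr1* at 0. The part of these cell type markers in the results below was not tested. In bulk RNA, fewer cells of a type and less RNA per cell cannot be told apart.

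Of the 10 genes, 9 were tested. *Acly*, *Acss1* and *Crat* passed lower, *Acss2*, *Aacs*, *Slc25a1* and *Pdha1* passed higher, and *Acat1* and *Dlat* did not pass. Thus 3 of 9 passed lower, where 12.6% of all genes tested did, and 4 of 9 passed higher, where 12.4% did. Past the fold change limit, 1 was called lower (*Acly*, background 2.57%) and 2 were called higher (*Acss2* and *Aacs*, background 2.98%). The groups did not overlap for 8 of the 9 genes, against 40.2% of all genes tested. These shares count *Acly*, which was targeted by design, and describe the chosen genes only. The median log2 fold change of the 9 genes was -0.13, and that of all genes tested was 0.0014. Without AclyM-KO replicate 2, 1 member and 972 of all genes passed lower, against 1511 with all libraries. The falls of *Acss1* and *Crat* depended on single libraries and on the tool, as given with each gene.

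**Figure D1:**
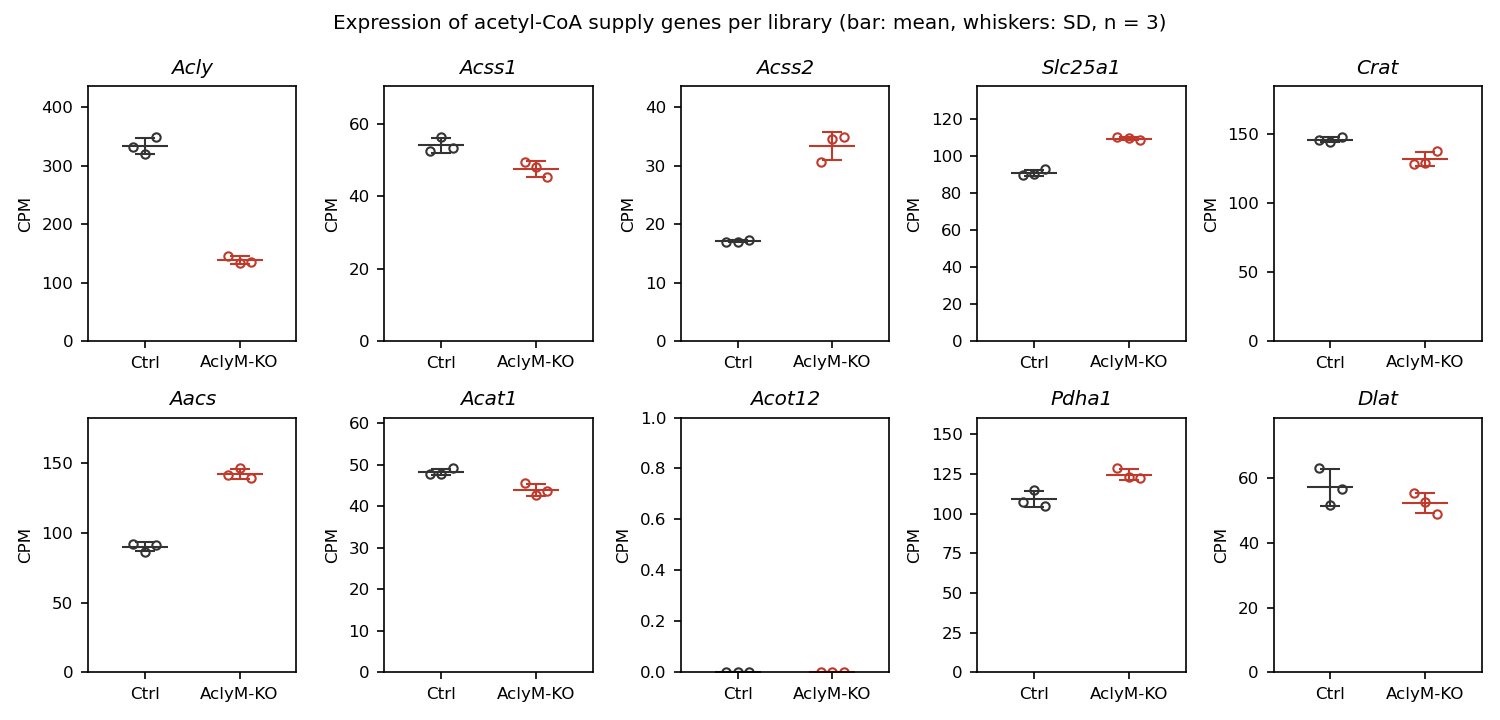
Expression of the 10 genes in CPM (vertical axes, each from 0) in the 3 Ctrl (black) and 3 AclyM-KO (red) libraries. Circles are libraries, the bar is the mean and whiskers are the SD. The groups do not overlap for *Acly*, *Acss1*, *Acss2*, *Slc25a1*, *Crat*, *Aacs*, *Acat1* and *Pdha1*, overlap for *Dlat*, and are at 0 for *Acot12*.

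*Acly*, the targeted gene, was at 332, 321 and 349 CPM in the Ctrl libraries and at 146, 134 and 135 CPM in the AclyM-KO libraries. Every AclyM-KO library was thus below the lowest Ctrl library, and the AclyM-KO mean was 41.4% of the Ctrl mean. On the log2 scale *Acly* changed by -1.27 with a standard error of 0.0533 and a 95% interval of -1.39 to -1.16 (edgeR adjusted p = 5.22e-10). A two-sided exact permutation test on CPM gave p = 0.10, the smallest possible with 3 against 3 libraries. Both deposited *Acly* rows, the RefSeq transcripts NM_001199296 and NM_134037 with 4426 and 4393 bases, had identical counts in all 6 libraries. Their ratio was therefore the same in both groups, and no isoform or exon could be separated.

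*Acss2* encodes the nuclear and cytosolic acetyl-CoA synthetase and lies on chromosome 2 from 155517948 to 155585724. Its level was 16.9, 17.0 and 17.2 CPM in Ctrl and 30.7, 34.5 and 34.9 CPM in AclyM-KO. The Ctrl libraries lay close together, and the AclyM-KO mean was 1.96 times theirs. The log2 rise of 0.97 had a standard error of 0.0813 and a 95% interval of 0.80 to 1.14 (edgeR adjusted p = 6.16e-07). Exons of other genes on the opposite strand cover 10.6% of the *Acss2* exonic bases. One of these genes, *Acss2os*, also passed higher (1.04, edgeR adjusted p = 3.61e-04), with counts of 48 to 96 in Ctrl and 136 to 171 in AclyM-KO. These can share reads with *Acss2* only if strand was not used in counting, which is not stated. With the counts of *Acss2os* and *Ggt7* subtracted in full, *Acss2* kept 153, 160 and 160 counts in the Ctrl libraries against 309, 365 and 335 in those of AclyM-KO, a log2 fold change of 0.93 (edgeR adjusted p = 9.82e-06).

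*Acss1*, on chromosome 2 from 150618105 to 150668500, encodes the mitochondrial acetyl-CoA synthetase. It was measured at 52.4, 56.4 and 53.4 CPM in Ctrl and at 49.6, 48.0 and 45.2 CPM in AclyM-KO. The groups were apart by less than their own ranges, and the log2 fold change of -0.18 (standard error 0.0600) passed narrowly (edgeR adjusted p = 0.0361). This pass was lost with DESeq2 and without any single library except Ctrl replicate 1, where the values ran from -0.21 to -0.15. *Acss3*, the remaining gene of the *Acss* family, had a single count in 1 Ctrl library. *Acot12*, on chromosome 13 from 91741512 to 91786148, encodes a cytosolic acetyl-CoA hydrolase. It had 0 counts in all 6 libraries, which allows at most 0.192 to 0.247 CPM per library (3 counts, counting error only).

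The ratio of these transcripts within a library does not depend on scaling between libraries. Per kilobase of transcript, the ratio of *Acss2* to *Acly* was 0.0768, 0.0800 and 0.0744 in Ctrl and 0.318, 0.390 and 0.389 in AclyM-KO. The mean ratio was 4.74 times higher in AclyM-KO, with a difference of 2.24 on the log2 scale and groups far apart (two-sided exact permutation test, p = 0.10, the smallest possible). As both terms were already known to move, the ratio describes the size of the shift and is no separate evidence. *Acly* outnumbered *Acss2* by 13.0 to 1 in Ctrl and by 2.73 to 1 in AclyM-KO. Between the acetyl-CoA synthetase genes, the ratio of *Acss2* to *Acss1* went from 0.389 ± 0.0149 to 0.869 ± 0.0964 (SD, n = 3 each), with 0.764, 0.889 and 0.954 in the AclyM-KO libraries. These ratios use all counts, including any shared with other-strand genes. With those subtracted in full, *Acss2* had 4.04 CPM per kilobase in Ctrl and 7.67 in AclyM-KO, and *Acss1* had 14.5 and 12.8. Both ratios would then be lower in each group, and still higher in AclyM-KO than in Ctrl.

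**Figure D2:**
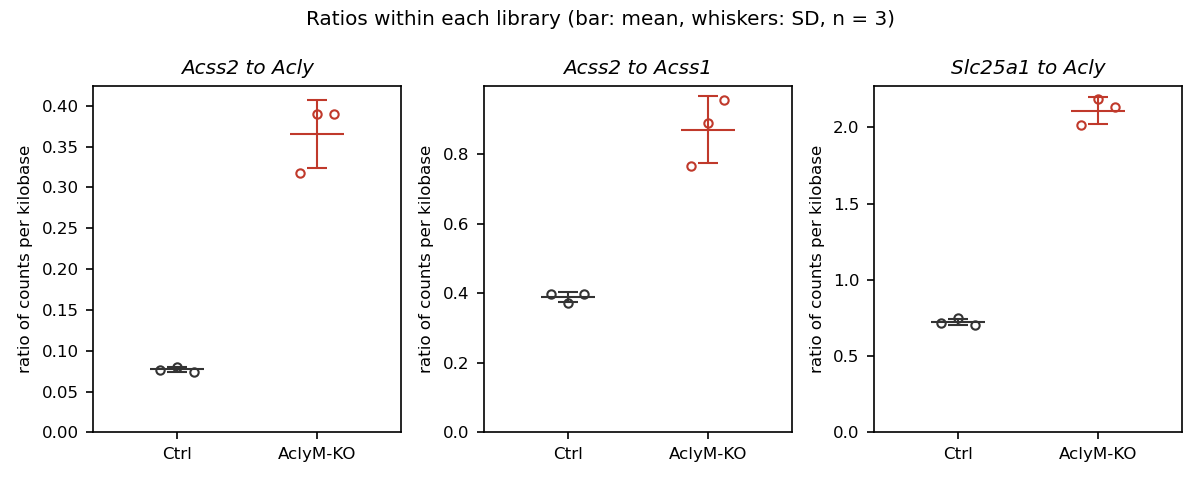
Ratios of counts per kilobase of transcript within each library (vertical axes from 0), for Ctrl (black) and AclyM-KO (red). Circles are libraries, bars are means and whiskers are the SD. Counts of other-strand genes are not subtracted. All 3 ratios are higher in every AclyM-KO library, that of *Slc25a1* to *Acly* passing from a mean of 0.725 to 2.11.

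*Slc25a1*, which encodes the mitochondrial citrate carrier, lies on chromosome 16 from 17925223 to 17928219. It had 89.9, 90.2 and 93.0 CPM in Ctrl and 111, 110 and 109 CPM in AclyM-KO. The libraries of each group differed by little, and every AclyM-KO library was above every Ctrl library. The mean rose 1.20-fold (log2 fold change 0.27, standard error 0.0475, edgeR adjusted p = 7.34e-04). The carrier and lyase transcripts thus moved in opposite directions.

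*Aacs*, on chromosome 5 from 125475814 to 125517410, encodes the cytosolic acetoacetyl-CoA synthetase, which activates the ketone body acetoacetate for lipid synthesis. Its level was 92.5, 86.4 and 91.5 CPM in Ctrl and 142, 146 and 139 CPM in AclyM-KO. The groups were far apart, and the mean rose 1.58-fold. The 95% interval of its log2 fold change (0.66, edgeR adjusted p = 2.59e-07) ran from 0.55 to 0.77 and includes the limit of 0.58. Tested against that limit itself with glmTreat, *Aacs* did not pass (edgeR adjusted p = 0.743). *Acat1*, on chromosome 9 from 53580522 to 53610382, encodes the mitochondrial acetoacetyl-CoA thiolase. Its values of 47.8, 47.8 and 49.1 CPM in Ctrl and 45.5, 42.6 and 43.6 CPM in AclyM-KO did not overlap, but the difference of -0.13 (95% interval -0.26 to -0.011) did not pass after adjustment over all genes (edgeR adjusted p = 0.106). The cytosolic thiolase gene *Acat2* passed higher, from 29.6, 28.8 and 31.6 CPM in Ctrl to 60.3, 62.0 and 60.9 CPM in AclyM-KO.

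*Crat* encodes carnitine acetyltransferase, which exchanges acetyl groups between CoA and carnitine, and lies on chromosome 2 from 30400471 to 30415813. It was at 146, 145 and 148 CPM in Ctrl and at 129, 129 and 138 CPM in AclyM-KO, with replicate 3 nearest to Ctrl. The log2 fold change of -0.15 (standard error 0.0494) passed narrowly (edgeR adjusted p = 0.0395). It no longer did with DESeq2, nor without Ctrl replicate 1 or 3 or AclyM-KO replicate 1 or 2, where the values ran from -0.15 to -0.13.

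The genes *Pdha1* and *Dlat* encode the E1 alpha subunit and the E2 acetyltransferase of the pyruvate dehydrogenase complex. *Pdha1*, on chromosome X from 160122209 to 160138413, had 108, 115 and 105 CPM in Ctrl and 128, 123 and 122 CPM in AclyM-KO. Its log2 fold change of 0.19, with a standard error of 0.0518, passed (edgeR adjusted p = 0.0134), but not without Ctrl replicate 3 (0.16) or AclyM-KO replicate 1 (0.17). Exons of *Map3k15* on the other strand cover 21.2% of its exonic bases. With all counts of *Map3k15* subtracted, the log2 fold change was 0.21 (edgeR adjusted p = 0.00806). *Dlat*, on chromosome 9 from 50634633 to 50659780, had 62.9, 51.7 and 56.7 CPM in Ctrl and 55.2, 52.7 and 48.8 CPM in AclyM-KO. Its groups overlapped and it varied most among the Ctrl libraries, with a coefficient of variation of 9.84%. The difference of -0.13 (95% interval -0.28 to 0.022) did not pass (edgeR adjusted p = 0.204), and it ranged from -0.056 without Ctrl replicate 1 (edgeR adjusted p = 0.624) to -0.20 without Ctrl replicate 2, where it passed (edgeR adjusted p = 0.0271).

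**Figure D3:**
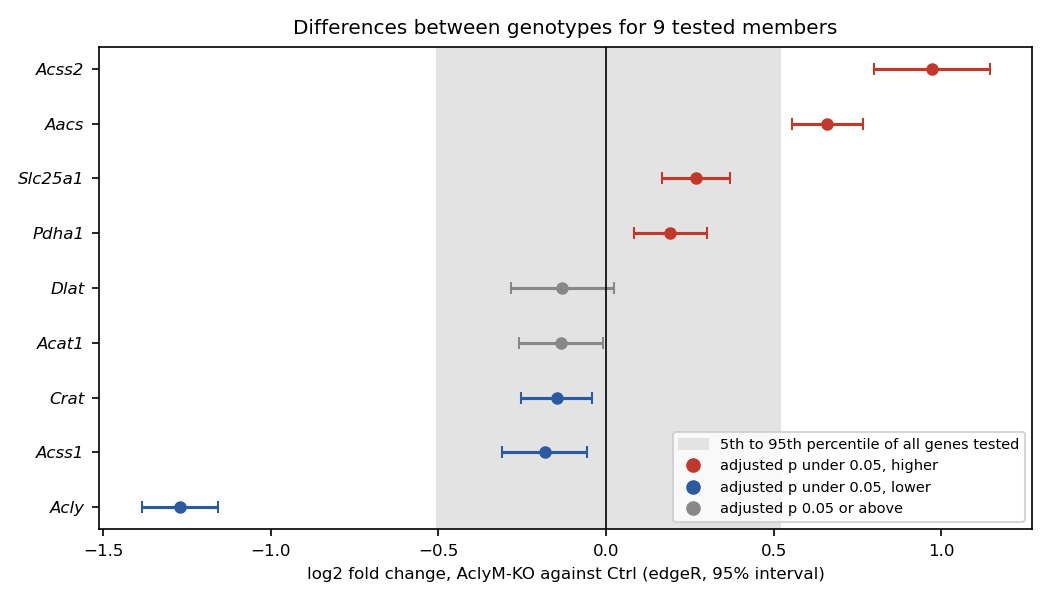
Log2 fold change between AclyM-KO and Ctrl (horizontal axis) for the 9 tested genes, with 95% intervals from edgeR. The grey band holds the middle 90% of all genes tested, from -0.51 to 0.52. *Acly*, *Acss2* and *Aacs* lie outside the band, and the other 6 genes inside it.

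To compare levels between genes, CPM was divided by transcript length in kilobases (RPKM). In Ctrl, *Acly* had the highest level of the 10 genes at 75.5 ± 3.25 RPKM, followed by *Slc25a1* at 54.7 ± 1.01 RPKM (SD, n = 3 each). *Pdha1* (38.3) and *Crat* (38.1) came next and did not differ beyond their spread. *Aacs* (27.8) followed, then *Acss1*, *Acat1* and *Dlat* (14.9, 14.2 and 14.1 RPKM), of which *Dlat* overlapped with both others, and *Acss2* was lowest of the detected genes at 5.81 ± 0.0582 RPKM (SD, n = 3). In AclyM-KO the order began with *Slc25a1* at 65.8 ± 0.577 RPKM, and *Aacs* (44.0) and *Pdha1* (43.8) overlapped behind it. *Crat* (34.4) and *Acly* (31.3) came next, without overlap, so that *Acly* moved from rank 1 to rank 5. *Acss1*, *Dlat* and *Acat1* (13.1, 12.9 and 12.9 RPKM) could not be ordered, and *Acss2* was again lowest at 11.4 ± 0.800 RPKM (SD, n = 3). The difference between the means was -44.2 RPKM for *Acly*, and 16.2, 11.2 and 5.58 RPKM for *Aacs*, *Slc25a1* and *Acss2*. Subtracting all counts of other-strand genes gives a lower bound, since not all of those counts need be shared with the member. At that bound *Pdha1* was at 21.6 RPKM in Ctrl and 25.1 RPKM in AclyM-KO, which would put *Acly* at rank 4 in AclyM-KO. *Acss2* was then at 4.04 and 7.67 RPKM, still the lowest of the detected genes. Transcript lengths are those of GENCODE, so levels of different genes are approximate.

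Genes around these 10 in the pathway were taken from 8 lists. Of their 67 genes that are not among the 10, 61 were tested, of which 3 passed lower (4.92%, against 12.6% of all genes tested) and 17 passed higher (27.9%, against 12.4%). Their median log2 fold change was 0.076. The lists were drawn up with earlier results of these data known, so that these shares describe the lists only.

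In the list of pyruvate dehydrogenase, its control and the pyruvate carrier, 2 of 13 tested genes passed lower, 4 passed higher and 7 did not pass. Of all genes tested, 12.6% passed lower and 12.4% higher, which is the background for this list and each list below. The share that passed lower was near that background, and these passes describe single genes only. The falls were in kinases that switch the complex off. *Pdk1* was at 92.0, 111 and 110 CPM in Ctrl and at 56.1, 70.3 and 58.6 CPM in AclyM-KO (log2 fold change -0.75, standard error 0.0827, edgeR adjusted p = 9.48e-06). *Pdk2* fell from 14.3 ± 1.70 to 8.67 ± 0.553 CPM (SD, n = 3 each), and *Pdk3* had a log2 fold change of -0.24 that did not pass (edgeR adjusted p = 0.0540). Neither *Pdk1* nor *Pdk2* had overlapping groups, and *Pdk4* had 0 counts in every library. The phosphatase genes *Pdp1* (0.37) and *Pdp2* (0.52), whose products switch the complex on, passed higher, values in parentheses being log2 fold changes here and below (edgeR adjusted p = 1.85e-04 and 3.04e-04). Among subunits, *Dld* (0.15) passed besides *Pdha1*, a pass that was lost with DESeq2, with a replicate block (edgeR adjusted p = 0.0707), without TMM scaling, without a filter on low counts, and without Ctrl replicate 3 or any AclyM-KO replicate. *Pdhb* (0.10) and *Pdhx* (0.018) did not pass. The carrier genes *Mpc1* (-0.19) and *Mpc2* (0.18) did not pass either.

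In the list of citrate formation and export, *Acly* alone passed lower, while *Slc25a1*, *Mdh2* (0.18) and *Me1* (0.74) passed higher and 8 of 12 tested genes did not pass. *Mdh2* and *Me1* encode mitochondrial malate dehydrogenase and the cytosolic NADP-dependent malic enzyme. *Me1* was low, at 2.27 ± 0.0915 CPM in Ctrl and 3.80 ± 0.435 CPM in AclyM-KO (SD, n = 3 each), and lost its pass without AclyM-KO replicate 1, as did *Mdh2* without AclyM-KO replicate 2 or 3. The citrate synthase gene *Cs* had a log2 fold change of 0.076 (95% interval -0.021 to 0.17). The plasma membrane citrate transporter gene *Slc13a5* had 0 counts.

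Among genes of acetate handling, transporters of lactate and other monocarboxylates went both ways. *Slc16a1* averaged 23.7 ± 1.99 CPM in the Ctrl libraries and 31.3 ± 1.92 CPM in the AclyM-KO libraries (SD, n = 3 each, log2 fold change 0.40, edgeR adjusted p = 0.00231), whereas *Slc16a3* fell from 100.2 ± 11.6 to 38.2 ± 0.623 CPM (SD, n = 3 each). *Sirt1*, whose product deacetylates and activates Acss2, had a log2 fold change of 0.21 (edgeR adjusted p = 0.0191), which did not pass with DESeq2 or without Ctrl replicate 3 or any AclyM-KO replicate. *Sirt3*, which does the same for Acss1, was at -0.37 (edgeR adjusted p = 0.0527).

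Ketone body genes showed 3 passes of 6 tested, all higher, in *Aacs*, *Acat2* (1.03) and *Bdh1* (0.74), where 12.4% of all genes tested passed higher. *Bdh1* was at 2.02 and 3.34 CPM on average and lost its pass with DESeq2 and without any single library other than Ctrl replicate 2. *Oxct1*, the abundant mitochondrial enzyme of ketone body use, was 648 ± 35.6 CPM in Ctrl and 655 ± 2.46 CPM in AclyM-KO (SD, n = 3 each), with a 95% interval of -0.081 to 0.11 on the log2 scale. In the carnitine list *Crat* passed lower and *Cpt1a*, the entry enzyme of mitochondrial fatty acid oxidation, passed higher (0.24, edgeR adjusted p = 0.00247), and 5 of 7 genes did not pass. These single passes are near the shares of all genes tested, 12.6% lower and 12.4% higher.

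Among users of cytosolic acetyl-CoA, the 4 lipid synthesis genes *Fasn* (1.105), *Acat2* (1.03), *Hmgcs1* (0.70) and *Acaca* (0.48) passed higher, while the other 5 genes, which encode acetyltransferases of histones and other proteins, had 95% intervals that included 0 and did not pass with edgeR, DESeq2 or limma-voom. *Ep300*, for one, was at -0.12 with a 95% interval of -0.26 to 0.025. In the SREBP list 3 of 8 genes passed, all higher: *Insig1* (0.87), *Srebf2* (0.21) and *Mbtps1* (0.15), the last of which was lost in 5 of the 6 fits without a library (not without Ctrl replicate 2), with DESeq2, with a replicate block (edgeR adjusted p = 0.0730), without TMM scaling and without a filter on low counts. *Srebf1* had a log2 fold change of 0.12 and did not pass (edgeR adjusted p = 0.138), except without Ctrl replicate 3 (0.18, edgeR adjusted p = 0.0327). Of 8 coenzyme A synthesis genes, the pantothenate kinase gene *Pank3* passed higher (0.28, edgeR adjusted p = 3.88e-04). This single pass is near the share of all genes tested that passed higher, 12.4%, and describes *Pank3* only.

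**Figure D4:**
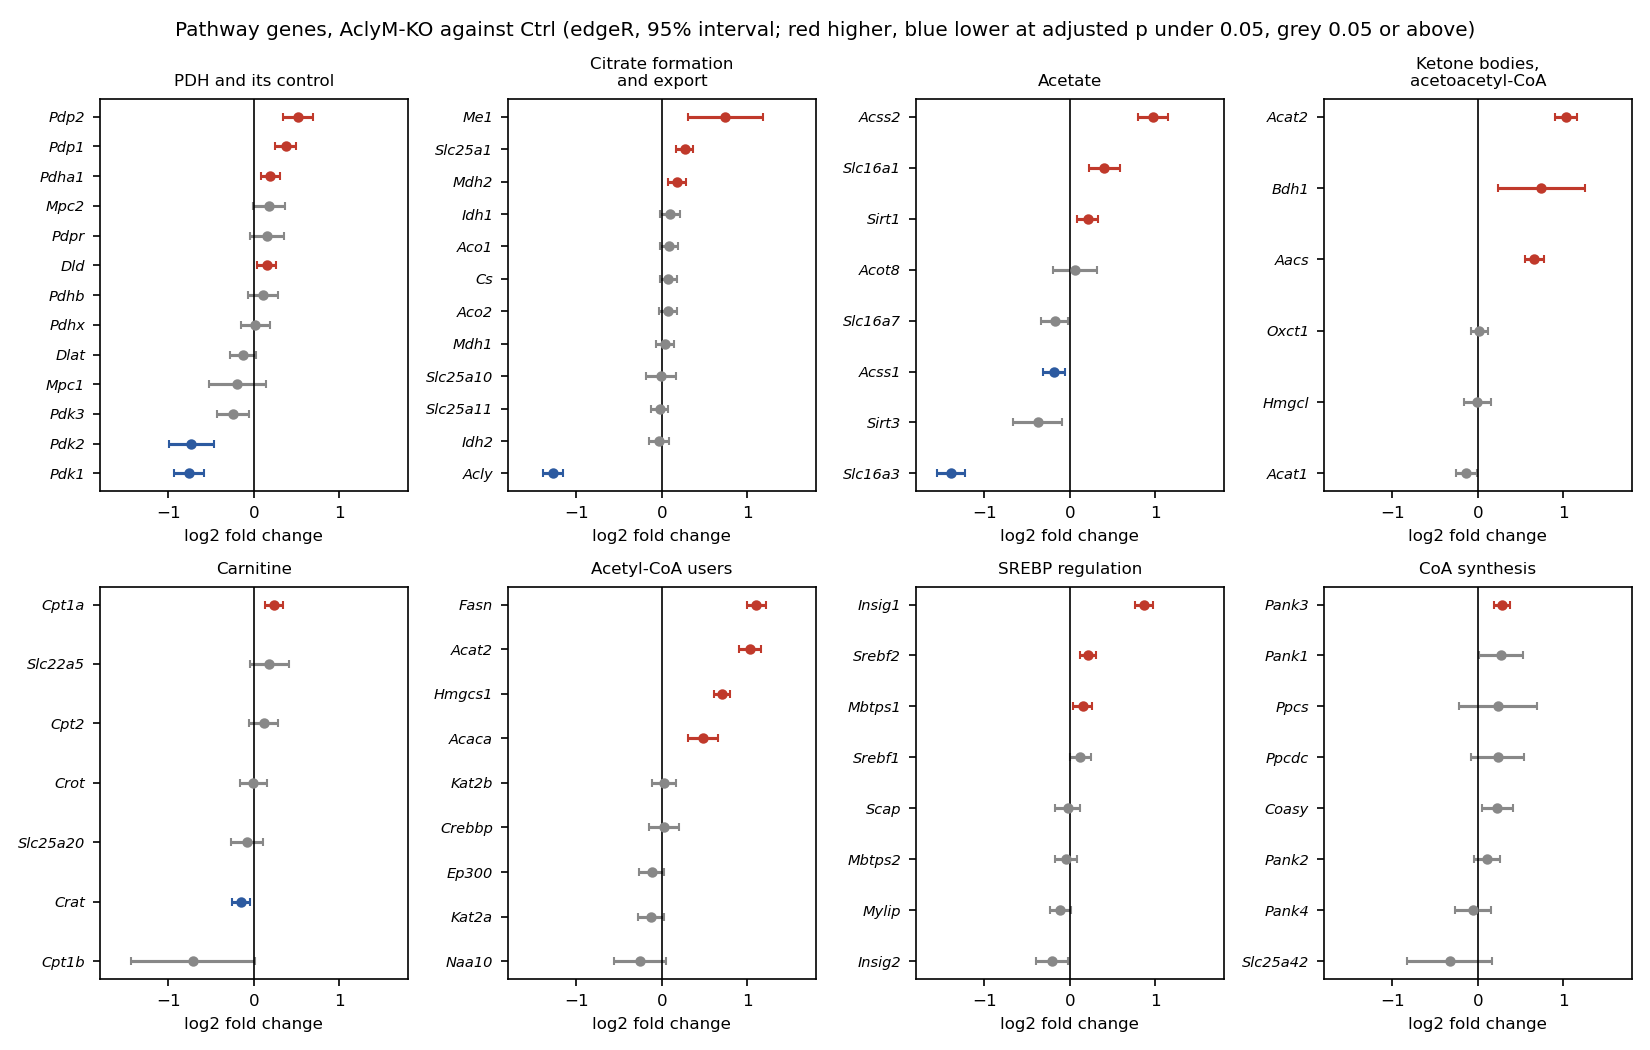
Log2 fold change between AclyM-KO and Ctrl (horizontal axes) with 95% intervals from edgeR for the tested genes of 8 pathway lists, 1 panel each. Red and blue mark genes with an adjusted p under 0.05, grey the others. *Fasn*, *Acat2*, *Insig1* and *Acss2* are to the right of 0, *Acly*, *Slc16a3*, *Pdk1* and *Pdk2* to the left.

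The genes whose pattern over the 6 libraries was most like that of *Acly*, among 3877 others with a mean of at least 50 CPM, were *Klf9*, *Rin3*, *Cd300lb*, *Abcg1* and *Narf*, with Pearson correlations of log2 CPM of 0.998 down to 0.996. Those most like *Acss2* were *Hsd17b7*, *Trp53inp2*, *Cd163*, *Txnrd1* and *C3ar1* (0.998 down to 0.994). These values rest on 6 libraries in 2 groups and mostly restate the difference between the groups. In size the likeness was loose, since *Cd300lb* differed by -0.17 and *C3ar1* by 0.19 on the log2 scale.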

How the data were processed

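RNA from 6 IL-4-treated BMDM cultures was analysed. The authors sequenced strand-specific mRNA libraries, used STAR 2.5.2b and mm10 for alignment, and deposited raw read counts per RefSeq transcript, unnormalized. The counting program, and whether it used strand, are not given in the sources used here. The table has 35745 rows, of which 117 without a gene symbol in RefSeq (GRCm38.p6) or GENCODE M21, with 0.370% to 1.38% of counts per library, were left out. Each gene was represented by its row of highest summed count, because rows of the same gene appear to count the same reads, as both *Acly* rows were identical. Opposite-strand overlap was taken from GENCODE.

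Counts were filtered with filterByExpr, scaled by TMM and tested with edgeR 4.0.16 (R 4.3.3, glmQLFit and glmQLFTest, genotype only). Standard errors are the log2 fold change divided by the root of its F statistic. Exact permutation tests used SciPy 1.17.1. Alternatives were DESeq2 1.42.0 (used by the study), limma-voom (limma 3.58.1), other scalings, filters and row choices, a replicate block, glmTreat and the removal of each library, and, added after seeing the data, the subtraction of counts of other-strand genes. The main fit was also run on simulated counts with larger changes than most reported here, which does not check the small ones. Replicate pairs differed beyond counting noise (chi-square per gene of 2.32 to 7.55, where 1 is sampling alone). Genes named are the 10 members, the genes of the lists and the 5 most alike to *Acly* and to *Acss2*. Members and lists were chosen with earlier results of these data known. No protein sequence is shown, and some list genes are not reported here or counted.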

Additional observations from a re-analysis of the deposited data

How the results depend on the processing

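The log2 fold changes of *Acly* (-1.31 to -1.24) and *Acss2* (0.93 to 1.03) kept their direction and passed under all 18 alternatives, and *Slc25a1* and *Aacs* under all but glmTreat. Depth was 12151975 counts or more and limits mainly *Acot12* and genes of a few CPM. Under glmTreat, which tests against the limit of 0.58, the unchanged fold changes of *Acss1* (-0.18), *Slc25a1* (0.27), *Crat* (-0.15) and *Pdha1* (0.19) no longer passed, as they lie inside the limit. *Aacs* (0.66) lies beyond it but its 95% interval includes it. glmTreat left 1 member lower and 1 higher (also 1 called higher), 2 and 4 pathway list genes, and 41 lower and 77 higher of all genes, both passed and called. With DESeq2, *Acss1* (-0.18, adjusted p = 0.0881) and *Crat* (-0.15, adjusted p = 0.0535) did not pass, which left 1 member lower, and with other-strand counts subtracted *Acss1* did not (-0.17, edgeR adjusted p = 0.0516).

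When single libraries were left out, *Acss1* ranged from -0.21 to -0.15, *Crat* from -0.18 to -0.13, *Pdha1* from 0.16 to 0.22 and *Dlat* from -0.20 to -0.056. The number of members passed lower ranged from 1 to 3. It was 1 without Ctrl replicate 3 or without AclyM-KO replicate 1 or 2. The number of all genes passed lower ranged from 972, without AclyM-KO replicate 2, to 1548. The ratio of *Acss2* to *Acly* kept a log2 difference of 2.19 to 2.34. The cause of these shifts was not tested.

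Replicate numbers are shared between the groups but are not said to pair them, and same-numbered libraries did not deviate together (correlations of -0.065, 0.050 and -0.031). With a replicate block, *Acss1* (-0.18, edgeR adjusted p = 0.0513) and *Crat* (-0.15, edgeR adjusted p = 0.0725) did not pass, nor did *Dld* and *Mbtps1* (both 0.15), 1 member passed lower, and 1329 genes passed lower and 1315 higher. Of the AclyM-KO libraries, replicate 2 correlated best with its own number (0.050), replicate 1 with Ctrl replicate 3 (0.037) and replicate 3 with Ctrl replicate 1 (0.111).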
